A study of Mus musculus with 9 samples.

Results

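Type A intercalated cells are the acid-secreting cells of the collecting duct and connecting tubule. They were examined here in single-cell RNA libraries of kidney tissue from 9 male C57BL/6 mice, as 327 cells of 196925 kept cells. The members were chosen by their transcripts. A kept cell had to carry at least 2 unique molecular identifiers (UMIs, counts of single captured mRNA molecules) summed over the intercalated cell genes Atp6v1g3, Atp6v0d2 and Foxi1, and at least 2 summed over the type A genes Slc4a1, Aqp6 and Kit. It could hold no UMI of the type B gene Slc26a4 and no more than 1 over markers of thick limb, distal convoluted tubule, endothelial cells and macrophages. The control group received saline by intraperitoneal injection. The AKI-CKD group (acute kidney injury progressing to chronic kidney disease) received 4 weekly intraperitoneal injections of cisplatin at 8 mg/kg, and the AKI-CKD + EGT group received the same cisplatin with ergothioneine (EGT), a dietary antioxidant amino acid, at 0.5 mg/mL in the drinking water from 3 days before cisplatin. All mice were 6 weeks old on arrival, the kidneys were taken after 8 weeks, and each group had 3 mice in the sequencing out of 6 in the study.

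Intercalated cells pump protons with a vacuolar ATPase (V-ATPase) that is shared by their acid-secreting and base-secreting forms. In type A cells the pump sits in the apical membrane, and the bicarbonate made by carbonic anhydrase leaves across the basolateral membrane through the anion exchanger AE1, which Slc4a1 encodes. Type B cells carry the apical exchanger pendrin, encoded by Slc26a4, while the neighbouring principal cells take up sodium and water through the epithelial sodium channel and aquaporins. Foxi1, a forkhead transcription factor, is needed for intercalated cells to form.

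The upstream windows of a few genes are shown because the values of these genes are used below. Atp6v1b1 encodes a kidney-specific V-ATPase subunit and was higher than in principal cells, Guca2a encodes guanylin and came near a call between groups, Muc20 a mucin that was higher than in type B cells, and Aqp6 an intracellular aquaporin that served in the choice of the cells. Each window holds the 250 bases before the annotated start of the gene, 5′ to 3′ on the strand of the gene, taken from RefSeq on the build GRCm38.p6, which is not the build of the count files. Capitals mark the letters TGTTTAC, a forkhead core motif, or their reverse complement.
Atp6v1b1: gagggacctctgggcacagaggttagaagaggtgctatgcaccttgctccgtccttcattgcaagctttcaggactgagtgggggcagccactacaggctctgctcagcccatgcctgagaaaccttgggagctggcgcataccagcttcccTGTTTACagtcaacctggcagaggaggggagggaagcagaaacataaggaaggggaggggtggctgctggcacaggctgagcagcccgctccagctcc
Guca2a: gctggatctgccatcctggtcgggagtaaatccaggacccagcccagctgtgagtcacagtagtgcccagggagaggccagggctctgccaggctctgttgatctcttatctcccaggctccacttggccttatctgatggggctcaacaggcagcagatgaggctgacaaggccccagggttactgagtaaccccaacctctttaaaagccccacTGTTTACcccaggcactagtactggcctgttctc
Muc20: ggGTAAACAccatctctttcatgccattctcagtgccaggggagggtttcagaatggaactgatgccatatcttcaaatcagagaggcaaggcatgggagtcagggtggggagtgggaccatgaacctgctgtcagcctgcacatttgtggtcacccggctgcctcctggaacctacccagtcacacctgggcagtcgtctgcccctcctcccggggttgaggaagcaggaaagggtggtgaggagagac
Aqp6: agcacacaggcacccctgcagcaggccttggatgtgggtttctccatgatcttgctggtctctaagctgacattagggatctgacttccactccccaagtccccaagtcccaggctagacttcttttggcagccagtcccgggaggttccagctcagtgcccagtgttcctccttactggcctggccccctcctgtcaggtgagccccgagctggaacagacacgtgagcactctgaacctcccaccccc
The Atp6v1b1 window lay at chr6:83742767-83743016 on the plus strand, with the motif on its own strand beginning 98 bases before the start. For Guca2a (chr4:119637482-119637731, plus strand) it began 34 bases before the start on the same strand, and for Muc20 (chr16:32797436-32797685, minus strand) 248 bases before it on the other strand. The Aqp6 window (chr15:99600950-99601199, plus strand) had no match, nor had those of Atp6v1g3, Foxi1, Atp6v1c2, Atp6v0a4 and Dmrt2. Among all genes with a window, 3.54% had the motif on either strand, against 2.96% of the genes tested against principal cells, 5.59% of the 143 genes called higher in type A cells that had a window, and 4.08% of the 245 called lower. A match describes letters only and is not evidence of binding.

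The libraries held between 70106161 and 101525691 UMIs per mouse. The minimum for a cell was 1000 UMIs and 500 genes and the maximum 15% mitochondrial UMIs, which left 17196 to 27463 cells per mouse. The members together held 1482282 UMIs, the fewest in AKI-CKD + EGT mouse 3 (74396) and the most in AKI-CKD mouse 1 (333832), with a median of 3991 UMIs per cell (1009 to 20178) and 1728 genes per cell. RNA of proximal tubule cells was found throughout: 20 proximal tubule genes reached 0.242 to 0.373 of their proximal tubule level in type A cells, with a median of 0.288, and 271 of the 327 members carried at least 2 UMIs of proximal tubule markers. Summed over these genes, the ratio was 0.177 to 0.462 in control mice, 0.230 to 0.249 in AKI-CKD mice and 0.289 to 0.402 in AKI-CKD + EGT mice. The cell names were numbered within each library, so the 98290 different names among 216680 do not tell whether libraries share cells, and no doublet caller was run. AKI-CKD + EGT mouse 3 stood apart before any gene was tested. It had 502 cells past the intercalated threshold, of which 20 were type A and 445 neither type A nor type B, against 45 to 162 of the last kind in the other mice, and among those 445 cells 68.5% had Atp6v1g3 as the only UMIs of the intercalated genes (40.0 to 60.8% in the other mice) and 12.8% had Foxi1 (21.6 to 42.6%).

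The label was checked on genes the choice did not use. Atp6v1b1 was detected in 86.2% of the members (55.0 to 95.7% by mouse), against 35.5% of 1548 principal cells and 1.83% of 161983 proximal tubule cells. In type B cells it was detected in 84.8%, so it marks intercalated cells of both forms. Adgrf5, an adhesion receptor of the type A cell surface, was detected in 82.3% of members, 10.9% of 276 type B cells and 0.904% of principal cells. Dmrt2, a transcription factor of type A cells, was found in 40.7% of members, in 0 of the 276 type B cells, which allows a share of up to 1.09%, and in 0.517% of principal cells. Other listed type A markers were less telling. Slc26a7 was detected in only 3.06% of members, and of 5 listed markers tested against type B cells only Adgrf5 was called higher. Without genes of the choice, the list summed to a median of 4103 CPM (counts per 1000000 UMIs) in members and 3967 CPM in type B cells. The base-secreting genes were nearly absent: Hmx2 was detected in 1.22% of members against 71.0% of type B cells, and Insrr, an alkali-sensing receptor, in 1.53% against 78.3%. Slc4a9, the AE4 exchanger usually placed in type B cells, was an exception, being detected in 65.7% of members (45.0 to 81.3% by mouse), 84.1% of type B cells, 1.29% of principal cells and 0.687% of proximal tubule cells. Slc4a1 also marks red cells and Kit mast cells. The mast cell genes Cpa3 and Mcpt4 and the erythroid genes Alas2 and Hbb-bt had no UMI in the members, and 0 of 327 cells allows a share of cells with a UMI of up to 0.917%. The 5 erythroid genes of the list summed to 0 to 34.5 counts per 1000000 UMIs by mouse. These limits and shares cover counting error only.

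The genes used for the choice are given as a description. Atp6v1g3 had a UMI in 97.2% of the members, Slc4a1 in 92.4%, Aqp6 in 90.5%, Atp6v0d2 in 77.7%, Foxi1 in 69.7% and Kit in 69.1%, against 3.00%, 0.282%, 0.314%, 0.620%, 0.327% and 0.311% of proximal tubule cells. The members and the type B cells had been taken out of that set, which lowers its shares. Slc4a1 and Aqp6 occurred together in 273 cells and all of Slc4a1, Aqp6 and Kit in 194, while 2 cells entered through Kit alone. A median member had 12 UMIs of the type A genes and 23 of the intercalated genes. Just inside the threshold, 26 members had exactly 2 UMIs of the type A genes, and just outside it 47 cells had 1. The mice differed here, since 22 of those 47 cells and 6 of the 26 came from AKI-CKD + EGT mouse 3. Of 11 members with exactly 2 UMIs of the intercalated genes, 6 came from this mouse as well. With at least 3 UMIs for both sums, 11 of its 20 members remained, against 296 of 327 over all mice. A further 46 cells met both sums but held Slc26a4, and 66 held more than 1 UMI of the excluded markers. Aqp2, the vasopressin-regulated water channel of principal cells, was detected in 30.3% of members (20.4% to 50% by mouse), 20.3% of type B cells (2.63 to 31.3%) and 4.31% of proximal tubule cells, and 95 members held at least 2 UMIs of Aqp2 and Aqp3. The source of these UMIs was not tested.

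The number of type A cells did not separate the groups. Control mice 1, 2 and 3 had 39, 32 and 31, which was 0.170%, 0.117% and 0.126% of kept cells. AKI-CKD mice had 61, 49 and 23 (0.264%, 0.254% and 0.0987%), and AKI-CKD + EGT mice had 24, 48 and 20 (0.140%, 0.221% and 0.116%). AKI-CKD mouse 3 was below every control mouse while the other two AKI-CKD mice were above them, so the groups overlapped. The mean share was 0.138 ± 0.0283% in the control group, 0.205 ± 0.0925% in the AKI-CKD group and 0.159 ± 0.0549% in the AKI-CKD + EGT group (SD, n = 3). The difference between AKI-CKD and control was 0.0679 percentage points (two-sided exact permutation p = 0.4), and that between AKI-CKD + EGT and AKI-CKD was -0.0467 points (p = 0.5, exact permutation). With 3 mice against 3 this test cannot go below 0.1.

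Among all 1729 cells past the intercalated threshold, type A cells made up 30.0%, 13.7% and 30.7% in the control mice, 34.5%, 39.2% and 21.7% in the AKI-CKD mice, and 20.7%, 20.1% and 3.98% in the AKI-CKD + EGT mice. Every AKI-CKD + EGT mouse was below every AKI-CKD mouse, with means of 14.9 ± 9.47% and 31.8 ± 9.05% (exact permutation p = 0.1, the smallest possible here). Once every cell was thinned to 1000 UMIs the AKI-CKD + EGT mice were at 24.7%, 26.5% and 5.57% and the AKI-CKD mice at 28.8%, 33.6% and 17.3%, so the groups then overlapped. The low value of AKI-CKD + EGT mouse 3 stood beside its 445 cells of neither type. In all mice such cells were less clearly intercalated than the members. Atp6v1b1 was detected in 23.6 to 51.1% of them by mouse, against 86.2% of members. At least 2 UMIs of proximal tubule markers were held by 74.5 to 96.9% of them, and by 271 of the 327 members. The share is thus one of cells past a threshold.

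**Figure D1:**
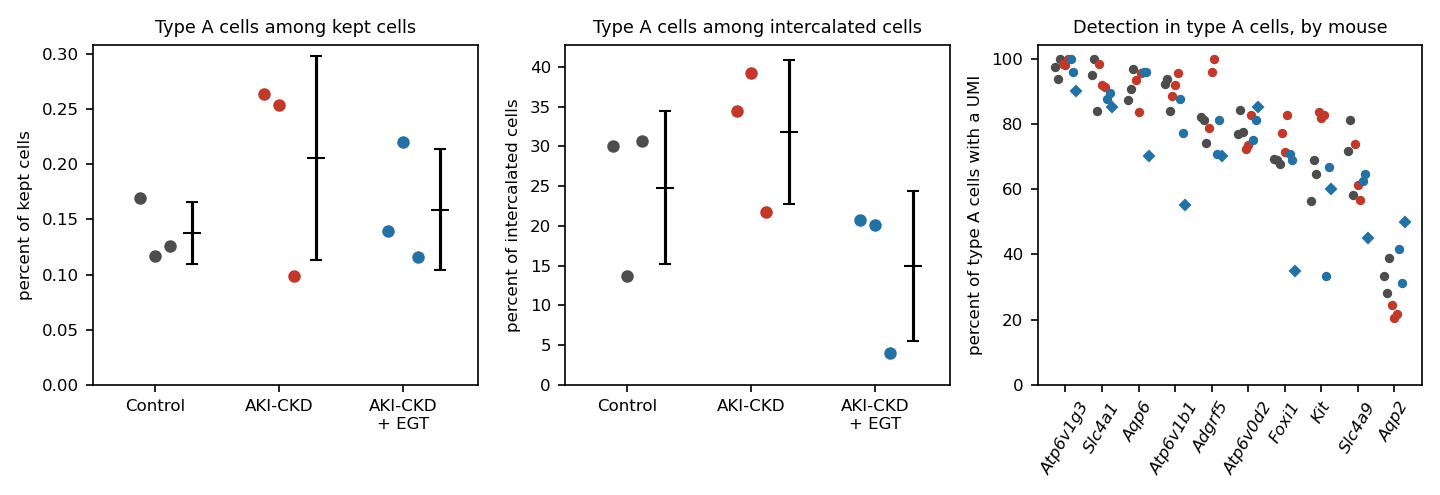
Type A intercalated cells by mouse: percent of kept cells (left), percent of cells past the intercalated threshold (middle) and percent of members with a UMI of each of 10 genes (right), with 1 point per mouse, grey for Control, red for AKI-CKD and blue for AKI-CKD + EGT, and bars for the mean ± SD of 3 mice. The AKI-CKD mice span 0.0987 to 0.264% of kept cells, around the whole control range. In the right panel the diamond marks AKI-CKD + EGT mouse 3. It is lowest for Foxi1, Atp6v1b1, Aqp6, Slc4a9, Adgrf5 and Atp6v1g3 and highest for Aqp2 and Atp6v0d2.

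Type A cells were first compared with principal cells, starting with the genes of the proton pump. The UMIs of each set of cells were added up by mouse and compared by edgeR's quasi-likelihood test with the mouse as a block, leaving out the genes of the choice, and a gene was called at a Benjamini-Hochberg adjusted p under 0.05 and a log2 fold change of at least 1. Of 5410 genes tested, 497 were called (9.19%), 184 higher (3.4%) and 313 lower (5.79%). Of 18 V-ATPase genes tested 10 were higher and none lower, with a median log2 fold change of 1.30 against -0.00 over all genes. Levels below are counts per 1000000 UMIs of the cell set (CPM), as the mean of 9 mice with the range over mice. Since the cells were chosen by markers, genes that travel with those markers differ in part through the choice.

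Atp6v1c2, an alternative C subunit, was at 352 CPM in type A cells (253 to 431) and 2.79 CPM in principal cells (0 to 8.68), a log2 fold change of 6.82 (SE 0.23, edgeR adjusted p = 9e-22). The kidney-specific B1 subunit gene Atp6v1b1 was at 857 CPM (591 to 1076) against 152 CPM (106 to 192), with a log2 fold change of 2.49 (SE 0.11). Every mouse had more of both in type A cells, and the ranges were far apart. The catalytic A subunit gene Atp6v1a (log2 fold change 1.90), the membrane subunit genes Atp6v0a4 (1.76), Atp6v0c (1.74) and Atp6v0b (1.25) and the stalk gene Atp6v1e1 (1.67) were also called higher. Among the subunits not called, Atp6v1b2, the other form of the B subunit, was at 99.1 CPM in type A cells and 107 CPM in principal cells (log2 fold change -0.13, SE 0.16), and Atp6v0d1, the other form of the d subunit, at 89.0 and 123 CPM (-0.44, SE 0.17).

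Acid-base and ion transport genes followed, with 6 of 14 tested called higher and 1 lower. Slc4a9 was at 457 CPM in type A cells (318 to 608) and 5.19 CPM in principal cells, a log2 fold change of 6.53 (SE 0.23). The cytosolic carbonic anhydrase gene Car2 was at 1338 against 358 CPM (1.91), and the membrane-bound Car12 at 362 against 76.6 CPM (2.23). Car15, another membrane-bound carbonic anhydrase, was the only one lower, at 218 against 510 CPM (-1.19), in 8 of 9 mice. The ammonia transporter gene Rhbg was at 1182 CPM (847 to 1408) against 413 CPM (227 to 633), a log2 fold change of 1.54, while its relative Rhcg did not pass at 658 against 696 CPM (-0.13, SE 0.11). Bsnd, which encodes barttin (log2 fold change 1.90), and the creatine kinase gene Ckb (2.65) completed the group.

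**Figure D2:**
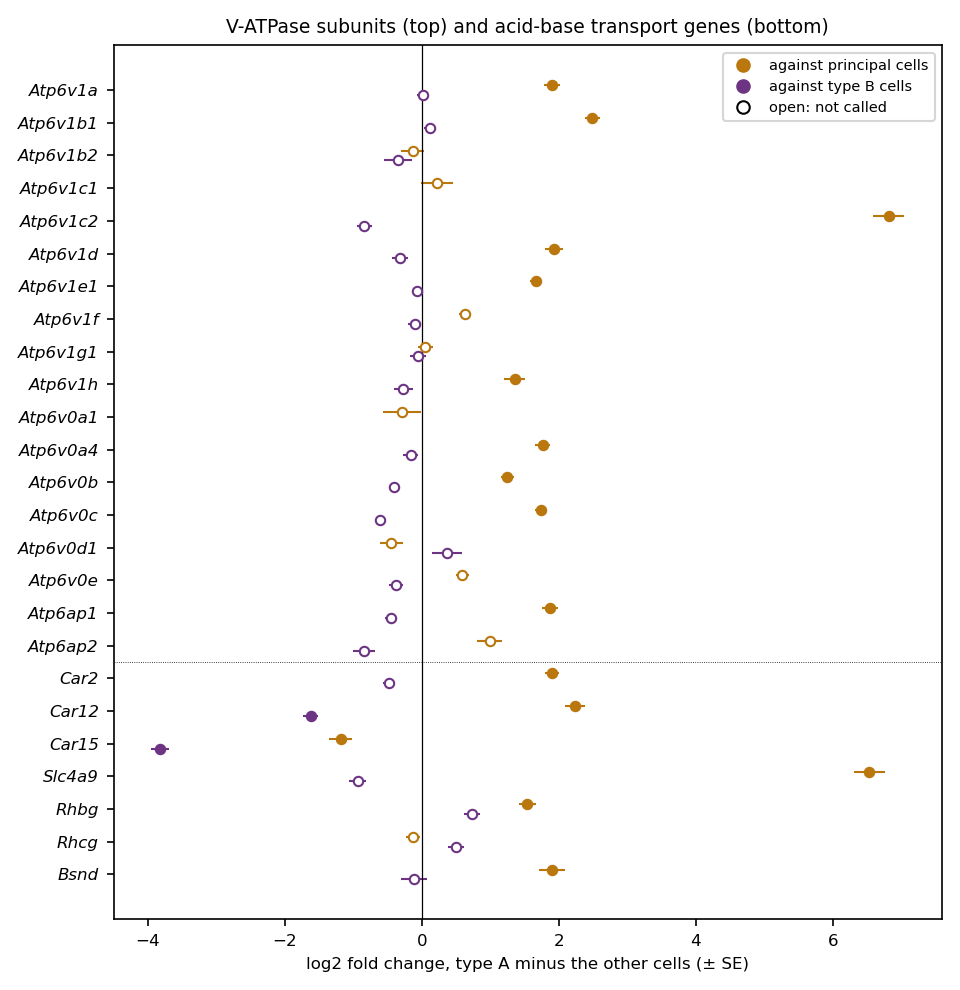
Log2 fold change ± SE of V-ATPase genes (above the dotted line) and acid-base transport genes (below it) in type A cells against principal cells (orange) and type B cells (purple), with open circles for genes that were not called. Orange points of the kidney forms such as Atp6v1c2 (6.82) and Atp6v1b1 (2.49) lie to the right, the purple points of the V-ATPase genes lie between -0.84 and 0.37, all open, and Car15 is to the left in both.

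Transcription factors and receptors were split. Of 9 factors tested, Dmrt2 (144 against 1.31 CPM, log2 fold change 6.42) and Foxp1 (373 against 118 CPM, 1.68) were higher, and Tfap2b, an AP-2 factor, was lower (48.0 against 157 CPM, -1.76). Tfcp2l1, which is needed for intercalated cells to mature, was at 1283 CPM (927 to 1531) against 720 CPM (566 to 909). Its log2 fold change of 0.83 (SE 0.09, edgeR adjusted p = 4.1e-09) was below the fold set for a call, although it was higher in 9 of 9 mice. Of 9 receptor genes tested, 3 were higher and 3 lower. Adgrf5 was at 739 CPM (601 to 884) against 5.74 CPM, a log2 fold change of 6.98 (SE 0.25). The oxoglutarate receptor gene Oxgr1 (4.84) and the vasopressin V1a receptor gene Avpr1a (6.57) were higher too, whereas the prostaglandin receptor gene Ptger1 (-3.08) and the mineralocorticoid receptor gene Nr3c2 (-1.49) were lower, along with Notch2.

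Genes were also named by size of change alone, in the same direction in 9 of 9 mice. The higher ones included Klkb1, plasma prekallikrein, at 97.3 CPM (26.9 to 164) and with no UMI in principal cells, which is at least 203-fold higher, pooled over the mice, when a floor of 3 UMIs is set for all principal cells. Tmem61 was at 265 CPM (218 to 301) against 1.25 CPM, a log2 fold change of 7.59, and Cbr2, a carbonyl reductase, at 91.6 against 0.509 CPM (7.11). Serpinb6b (6.98), Pdlim3 (6.91) and 2610016A17Rik (6.83) were the others. In proximal tubule cells, whose RNA was found throughout the members, these genes were at a pooled 0.103 to 0.855 CPM. In type B cells Klkb1 was at 103, Tmem61 at 150 and Serpinb6b at 114 CPM, so these do not mark type A cells alone. On the lower side were Lcn2, the iron-binding lipocalin of innate defence (7.53 against 91.7 CPM, -3.95), the oxysterol hydroxylase gene Cyp7b1 (-3.74), Dnm3 (-3.68), Fam110b (-3.67), the water channel gene Aqp4 (15.6 against 190 CPM, -3.60), Tmem150c (-3.35), the growth factor gene Btc (-3.29), Col26a1 (-3.21), Gprc5b (-3.19) and Grip1 (-3.15). Principal cell genes were lower for 4 of 4 tested, among them Fxyd4, a regulator of the sodium pump, at 377 against 2559 CPM (-2.92), and Scnn1b, a subunit of the sodium channel, at 173 against 415 CPM (-1.28).

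Stress and defence genes gave a mixed picture. Of 19 immediate early and heat shock genes, 5 were higher and none lower, among them Atf3 at 825 against 220 CPM (1.99), Klf6 at 873 against 358 CPM (1.29) and Hspa1a at 465 against 158 CPM (1.52). In type B cells Atf3 was at 724, Klf6 at 535 and Hspa1a at 249 CPM, and none of the 18 genes tested against them was called. Of 14 tubule injury genes tested, Sox4 (2.01) and Tmsb10 (1.27) were higher and Anxa2 (-2.46) and Timp2 lower. Of 12 p53 target genes 1 was lower, Gdf15, at 63.5 against 212 CPM (-1.95), and of 17 Nrf2 target genes none was called. Defb1, an epithelial defensin, was at 1969 CPM (1438 to 2748) in type A and 1930 CPM (902 to 3133) in principal cells, while Wfdc2, another secreted defence protein, was lower (558 against 1788 CPM, -1.68). Of 80 nuclear genes of oxidative phosphorylation 1 was called higher, Cox7a1, although the list had a median log2 fold change of 0.51.

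Against type B cells, the base-secreting form, fewer genes were tested and called. This set was smaller, at 276 cells and 1438608 UMIs, against 1548 cells and 5741407 UMIs of principal cells. The counts of calls therefore do not measure how close the cell types are. Of 2269 genes tested 68 were called (3%), 36 higher (1.59%) and 32 lower (1.41%). None of the 16 V-ATPase genes tested was called, with a median log2 fold change of -0.29: Atp6v1b1 was at 857 CPM in type A and 796 CPM in type B cells, and Atp6v1a at 1094 and 1092 CPM. Atp6v1c2 was at 352 CPM (253 to 431) against 645 CPM (513 to 911), a log2 fold change of -0.84 (SE 0.11, edgeR adjusted p = 5.83e-06) that was below the fold set for a call, with lower values in type A cells in 9 of 9 mice. Slc4a9 had -0.93 (SE 0.13) and Atp6v0c -0.60 (SE 0.09), again lower in each mouse without passing the fold threshold.

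Carbonic anhydrases carried the clearest difference in transport. Car15 was at 218 CPM in type A cells (111 to 341) and 3094 CPM in type B cells (1770 to 4836), a log2 fold change of -3.82 (SE 0.13, edgeR adjusted p = 9.65e-16), and Car12 at 362 against 1106 CPM (-1.62). Car2 was not called (1338 against 1879 CPM, -0.48), nor were Rhbg (0.73) and Rhcg (0.50). Of the regulators and receptors, Hmx2 was at 26.9 CPM (0 to 184) against 809 CPM (323 to 1285), with a log2 fold change of -5.18 (SE 0.44), and 34 UMIs in 4 members made up all of it in type A cells. Insrr was at 3.69 against 492 CPM (-6.91), and Adgrf5 at 739 against 27.2 CPM (4.64). Oxgr1, usually placed in type B cells, was at 247 CPM in type A and 150 CPM in type B cells (0.69, SE 0.16, not called), and Avpr1a at 95.2 and 125 CPM (-0.33, SE 0.22).

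Of the genes named by size of change, 2610016A17Rik was at 117 CPM (72.0 to 151) and had no UMI in type B cells, at least 56.3-fold higher, pooled over the mice, against a floor of 3 UMIs for all of them. Muc20 was at 236 CPM (127 to 449) against 2.58 CPM (0 to 19.4), a log2 fold change of 6.27 (SE 0.37). It was also at 135 CPM in principal cells. The neprilysin gene Mme (356 against 28.6 CPM, 3.66), Defb1 (1969 against 274 CPM, 2.90), the small heat shock protein gene Cryab (366 against 55.9 CPM, 2.62), Cd24a (217 against 43.7 CPM, 2.39) and Sh3bgrl3 (599 against 167 CPM, 1.84) were higher as well. In principal cells Mme was at 4.71 CPM, but Defb1 was at 1930, Cryab at 236, Cd24a at 253 and Sh3bgrl3 at 775 CPM. Higher too were the principal cell genes Fxyd4 (2.08) and Scnn1b (2.01), and of 5 principal cell genes tested 4 were called higher. Beside this stand the 95 members with Aqp2 and Aqp3 UMIs, whose part in it was not tested. Lower were Syt7 (-5.58), a synaptotagmin, the myelin gene Pmp22 (-4.34), the binding protein gene Igfbp5 (-4.19), Nbea (-3.98), the protease inhibitor gene Spink8 (-2.79), the collagen processing gene Pcolce (-2.16) and the surface protein gene Emb (-1.83). Of 12 injury genes tested Cd24a and Clu (802 against 298 CPM, 1.56) were higher and Cst3 and Pcolce lower. Clu was at 1139 CPM in principal cells.

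**Figure D3:**
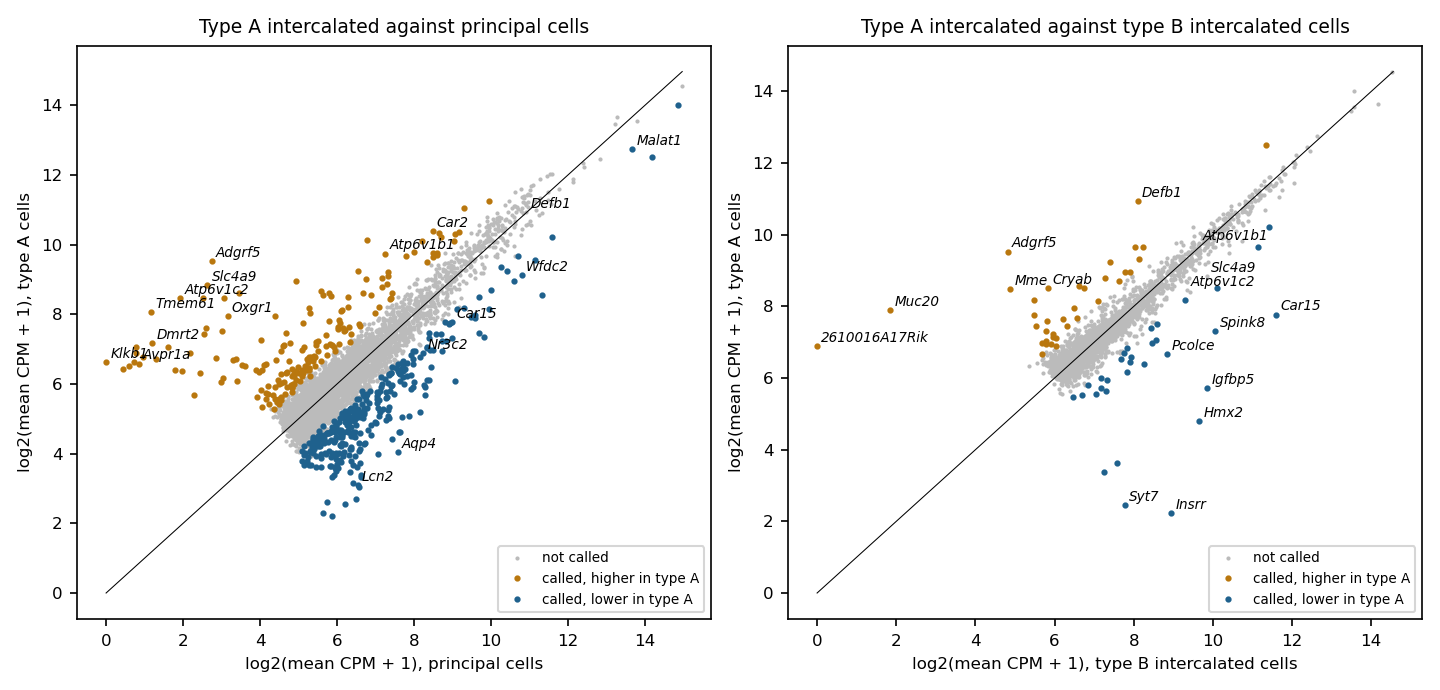
Mean level over 9 mice of each tested gene in type A cells (vertical axis) against principal cells (left) and type B cells (right), both as log2(CPM + 1), with called genes coloured and the line of equal level drawn. Adgrf5 is far above the line in both panels (739 CPM against 5.74 and 27.2 CPM), Atp6v1c2 and Slc4a9 in the left panel only, and Insrr, Hmx2 and Car15 lie below it on the right.

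Between the groups of mice, few genes of type A cells passed. Of 3007 genes tested none was called between AKI-CKD and control mice (0%, edgeR quasi-likelihood test, Benjamini-Hochberg adjusted p under 0.05), with 211 genes at an unadjusted p under 0.05 and 0 called by DESeq2 (166 at an unadjusted p under 0.05). When only the 6 mice of that comparison were fitted, 2 genes were called, Arl15 and Esrrg, both lower in AKI-CKD mice (smallest adjusted p = 0.0349). Between AKI-CKD + EGT and AKI-CKD mice 1 gene was called (0.0333%) and 273 were at an unadjusted p under 0.05. Without the filter on low counts, 29 of 16297 genes were called in the first comparison and 40 in the second. Leaving aside genes of the choice and mitochondrially encoded genes, 28 and 34 remained. Both comparisons use the same AKI-CKD mice, so a value that is low or high there enters them with opposite sign. The mice are the replicates, 3 in each group, and p-values measure the spread between them. Levels below are CPM of the tested genes with scaled library sizes (TMM), so they differ in scale from those between cell sets. The mice of both groups did not overlap for 478 genes between AKI-CKD and control (15.9%), 254 higher (8.45%) and 224 lower (7.45%), and for 456 between AKI-CKD + EGT and AKI-CKD (15.2%), 238 higher (7.91%) and 218 lower (7.25%).

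The called gene was Arl15, a small GTPase of the ARF-like family. It was at 271, 229 and 244 CPM in control mice 1, 2 and 3, at 64.3, 93.0 and 58.8 CPM in the AKI-CKD mice and at 162, 334 and 503 CPM in the AKI-CKD + EGT mice. The AKI-CKD mice were below all other mice, and the AKI-CKD + EGT mice spread around the control values. Its log2 fold change was -1.76 (SE 0.37, edgeR adjusted p = 0.234) in the first comparison and 2.11 (SE 0.37, edgeR adjusted p = 0.0494) in the second, resting on 225 UMIs in 97 cells. The call was close to the threshold. It was lost when any of AKI-CKD mouse 1, 2 or 3 or AKI-CKD + EGT mouse 2 or 3 was left out, with log2 fold changes of 1.79 to 2.34, and held without AKI-CKD + EGT mouse 1 (2.43), when 21 genes were called. It was also lost when only the 6 mice of this comparison were fitted (2.14, edgeR adjusted p = 0.131) and with the replicate number as a block (2.05, adjusted p = 0.0714). DESeq2 called it as well, along with Chka, Esrrg, Gadd45g, Guca2a and Ptprj, which makes 6, and with Atp6v1g3, a gene of the choice, 7. In principal cells Arl15 had log2 fold changes of -1.05 (SE 0.23) and 0.65 (SE 0.23), and the difference between the cell types was not called (edgeR adjusted p = 0.992 and 0.408).

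The genes nearest to a call are named by smallest p and were not past the threshold in the main edgeR fit of 9 mice. DESeq2 called Esrrg, Gadd45g, Guca2a and Ptprj in the second comparison, and the fit of 6 mice called Esrrg in the first. Without the filter on low counts, 10 of the 25 genes named for the first comparison newly passed, and 10 of the 24 for the second. Nr3c2, the mineralocorticoid receptor, was at 147, 163 and 254 CPM in control mice, 60.7, 49.2 and 39.2 CPM in AKI-CKD and 124, 144 and 305 CPM in AKI-CKD + EGT mice. Esrrg, a nuclear receptor of energy metabolism, was at 427, 507 and 391 CPM, then 182, 153 and 108 CPM, then 191, 589 and 862 CPM in the same order of groups. For both the AKI-CKD mice were the lowest of the 9. The log2 fold changes were -1.82 and 1.74 for Nr3c2 (edgeR adjusted p = 0.234 and 0.133) and -1.53 and 1.78 for Esrrg (adjusted p = 0.294 and 0.115), the first comparison given first. Gadd45g, a stress-inducible growth arrest gene, was at 551, 262 and 420 CPM in control mice, 200, 142 and 186 CPM in AKI-CKD and 562, 432 and 431 CPM in AKI-CKD + EGT mice, with 1 cell holding 9.09% of its UMIs. Its log2 fold changes were -1.22 (adjusted p = 0.29) and 1.43 (adjusted p = 0.107).

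Guca2a, which encodes the intestinal and renal peptide guanylin, ran the other way. It was at 372, 245 and 274 CPM in control mice, 796, 591 and 725 CPM in AKI-CKD and 219, 386 and 198 CPM in AKI-CKD + EGT mice, so the AKI-CKD mice were the highest of the 9 (log2 fold changes 1.24, SE 0.27, and -1.33, SE 0.28, edgeR adjusted p = 0.234 and 0.107). Guca2a was at 353 CPM in type A, 339 CPM in type B and 7.37 CPM in principal cells on the scale between cell sets. In principal cells the log2 fold changes ran the same way, at 2.73 (SE 0.76) and -2.36 (SE 0.70) for Guca2a, -1.08 and 1.03 (SE 0.31 for both) for Esrrg, -0.63 and 0.48 (SE 0.24 for both) for Nr3c2 and -0.59 and 0.68 (SE 0.39 for both) for Gadd45g, and none of these responses was called different between the cell types (edgeR adjusted p from 0.941 to 1). Other genes of the rule for AKI-CKD against control were Scand1 (0.83), Wdr45b, an autophagy gene (1.39), the heat shock gene Hspa1b (2.09) and the thymosin gene Tmsb10 (1.36), and below zero the RNA-binding protein gene Rbm47 (-1.23) and Tmcc3 (-1.72), with edgeR adjusted p from 0.29 to 0.607. For AKI-CKD + EGT against AKI-CKD they were the receptor phosphatase gene Ptprj (1.99) and the translation regulator gene Cpeb2 (1.62), and below zero Rgs2, a regulator of G protein signalling (-1.28), Scand1 (-0.99), Ik (-2.37) and the homeobox gene Hoxc9 (-2.11), with adjusted p from 0.107 to 0.23. Ik and Hoxc9 rested on 74 and 81 UMIs in all members and were at 0 in AKI-CKD + EGT mouse 3.

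**Figure D4:**
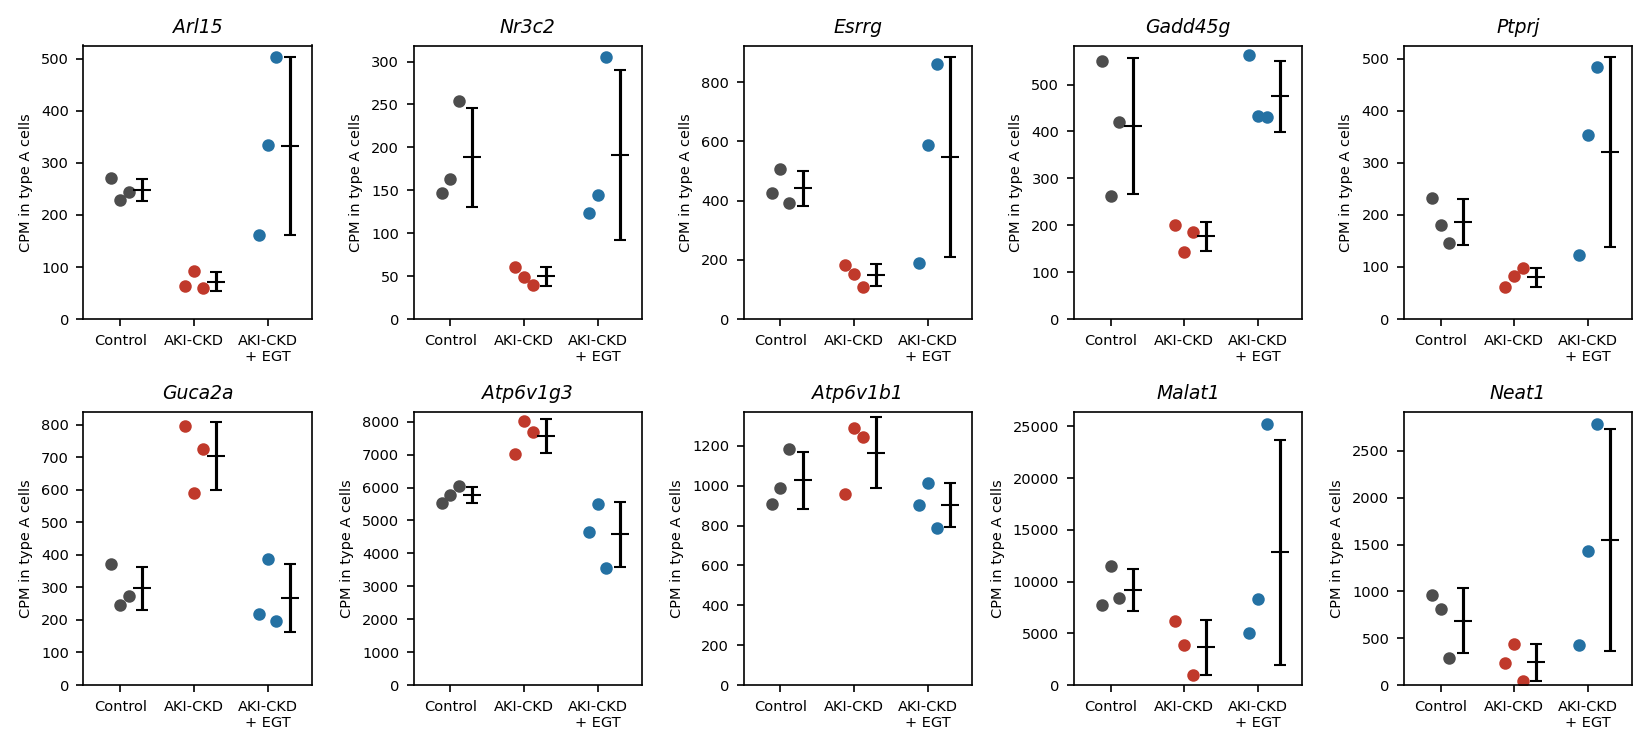
Levels of 10 genes in type A cells by mouse, in CPM of tested genes with scaled library sizes, with 1 point per mouse and bars for the mean ± SD of 3 mice. The AKI-CKD points are the lowest for Arl15 (58.8 to 93.0 CPM), Nr3c2, Esrrg, Gadd45g and Ptprj and the highest for Guca2a and Atp6v1g3, while Malat1 and Neat1 reach their highest value in AKI-CKD + EGT mouse 3.

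No gene of the V-ATPase or transport lists was called between groups by edgeR, while DESeq2 called Atp6v1g3 in the second comparison. Atp6v1g3, which helped to choose the cells, was at 5529, 5779 and 6033 CPM in control mice, 7015, 8015 and 7696 CPM in AKI-CKD and 4659, 5513 and 3556 CPM in AKI-CKD + EGT mice, with a log2 fold change of -0.72 (SE 0.22, edgeR adjusted p = 0.28) in the second comparison. This is a description, and no result is drawn from the tests of this gene, since a member is likelier to be kept where the gene is high. Atp6v1b1, which was not used, was at 907, 989 and 1183 CPM in control mice, 961, 1291 and 1245 CPM in AKI-CKD and 905, 1015 and 790 CPM in AKI-CKD + EGT mice, and these groups overlapped. Over the 17 V-ATPase genes tested that had no part in the choice, the median log2 fold change was 0.22 in the first and -0.14 in the second comparison, against 0.01 and 0.01 over all genes. In the first comparison 4 of the 17 had AKI-CKD mice above every control mouse (Atp6v0b, Atp6v1f, Atp6v0e and Atp6v1e1), and in the second Atp6v1f and Atp6v1e1 had AKI-CKD + EGT mice below every AKI-CKD mouse. Of all genes, 8.45% were apart in that direction in the first comparison and 7.25% in the second. Slc4a1 and Aqp6 also served in the choice and are given as a description. Slc4a1 was at means of 1907 ± 337, 1970 ± 163 and 1773 ± 494 CPM and Aqp6 at 1840 ± 727, 1795 ± 368 and 1668 ± 578 CPM, in the order control, cisplatin alone, cisplatin with EGT (SD, n = 3). Over 14 transport genes that had no part in the choice the medians were -0.10 and -0.10, with the groups apart for none in the first comparison and for 3 in the second, Slc4a9 higher and Bsnd and Rhbg lower in the AKI-CKD + EGT mice, without a call. Of all genes, 15.9% were apart in the first comparison and 15.2% in the second. Car12 was at 372, 335 and 440 CPM, 296, 356 and 373 CPM, and 353, 576 and 880 CPM (log2 fold change 0.79 in the second comparison, SE 0.29, adjusted p = 0.424).

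Other lists bearing on cisplatin and EGT were measured in part. Of 30 p53 target genes 5 passed the filter on low counts, with medians of 0.36 and -0.05. The groups were apart for 2 higher and 1 lower in the first comparison and for none in the second. Over all genes 15.9% and 15.2% were apart, and 5 genes are few for a share. Bax, a pro-apoptotic member, was at 54.3, 32.7 and 39.1 CPM in control mice, 89.3, 120 and 108 CPM in AKI-CKD and 152, 65.5 and 89.8 CPM in AKI-CKD + EGT mice (1.29 for AKI-CKD against control, adjusted p = 0.607). Cdkn1a, the p53-driven cell cycle inhibitor, was too low to be tested between groups in type A cells, with 68 UMIs in 29 members, 20 of them in 1 cell, which is more than any mouse but AKI-CKD mouse 3 held in all. That mouse had 225 CPM against 0 to 71.8 CPM in the other mice. In principal cells the log2 fold change of Cdkn1a between AKI-CKD and control was 2.92 (SE 0.51). The response in type A minus that in principal cells was -1.63 (SE 0.73, edgeR adjusted p = 0.992), which was not called. Of 22 Nrf2 targets, the antioxidant response, 15 were tested, with medians of 0.10 and 0.09. The groups did not overlap for Gclc and Gclm in the first comparison, both lower in AKI-CKD mice, and for Gsr in the second, higher with EGT. Of all genes, 7.45% were apart and lower in the first comparison and 7.91% apart and higher in the second. With 15 genes tested, the list is small for a share. Gclc, the rate-limiting enzyme of glutathione synthesis, was at 333, 319 and 362 CPM in control mice, 179, 153 and 167 CPM in AKI-CKD and 143, 393 and 431 CPM in AKI-CKD + EGT mice (-1.01, adjusted p = 0.607, then 0.92, adjusted p = 0.406). AKI-CKD mice were below every control mouse, and AKI-CKD + EGT mouse 1 was below them in turn. The glutathione transferase gene Gsta2 of the same list went the other way with overlap, at 77.6, 180 and 58.7 CPM in control mice, 350, 219 and 167 CPM in AKI-CKD and 372, 98.2 and 251 CPM in AKI-CKD + EGT mice. Slc22a4, the EGT transporter, had 9 UMIs in 9 members, a pooled 6.07 CPM, against 19.1 CPM in proximal tubule cells. Of 8 transcription factors listed for intercalated cells, other than Foxi1, the median was -0.54 and 0.57. The list is not particular to these cells, with a median log2 fold change of -0.58 against principal cells. Esrrg (-0.56), Pax2 (-0.93) and Mecom (-0.97) were lower than in principal cells, and Foxp1 (1.68), Tfcp2l1 (0.83) and Dmrt2 (6.42) higher. Between the groups Dmrt2 had 0.39 and -0.56, with overlap. In the first comparison the groups were apart for Esrrg, Pax2, Foxp1 and Mecom, lower in AKI-CKD mice, and for Tfcp2l1, higher in them, and in the second for Esrrg, Pax2 and Pax8, higher with EGT. Over all genes 15.9% and 15.2% were apart, and 8 genes are few for a share. Pax2 had -1.21 and 1.09 (adjusted p = 0.607 and 0.429). Of 12 injury genes the median was 0.33 and -0.18, of 19 immediate early and heat shock genes 0.13 and -0.02, and none was called in either comparison.

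Nuclear, mitochondrial and proximal tubule RNA differed between the mice without a call. The nuclear RNA Malat1 was at 7716, 11468 and 8361 CPM in control mice, 6218, 3841 and 921 CPM in AKI-CKD and 4993, 8269 and 25216 CPM in AKI-CKD + EGT mice. Neat1 had the same highest mouse, AKI-CKD + EGT mouse 3, at 2784 CPM. Their log2 fold changes were -1.32 and 1.79 for Malat1 and -1.45 and 2.57 for Neat1, with edgeR adjusted p from 0.133 to 0.642. The 11 mitochondrially encoded genes tested had medians of -0.93 and 1.37, with 6 of them higher in every AKI-CKD + EGT than in any AKI-CKD mouse, and the share of mitochondrial UMIs in the members was 1.10 to 4.91% in control, 1.03 to 2.15% in AKI-CKD and 2.34 to 5.74% in AKI-CKD + EGT mice. For 19 proximal tubule genes, which are foreign to these cells, the medians were -0.33 and 0.48, and Kap, an androgen-regulated kidney gene, was at 61514, 37075 and 14081 CPM, then 18405, 12923 and 22273 CPM, then 30024, 29717 and 39944 CPM. Ribosomal protein genes had medians of 0.27 and -0.30 over 80 genes, and 33 and 30 of them had groups that did not overlap, higher in AKI-CKD mice each time. For 79 nuclear genes of oxidative phosphorylation the medians were 0.16 and -0.16, with 18 and 14 apart, higher in AKI-CKD mice each time. For comparison with the counts of these lists, which go 1 way, 8.45% of all genes were apart and higher in AKI-CKD mice in the first comparison. In the second, 7.25% of all genes were apart and higher in AKI-CKD mice, and 7.91% apart and higher with EGT. What part these shifts have in Arl15, Nr3c2, Esrrg or Guca2a was not tested. In the 45 members with fewer than 2 UMIs of proximal tubule markers and of Aqp2 and Aqp3, 224 genes could be tested and none was called.

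Markers of other cells differed widely in level. Without Kdr, C1qa, C1qb, Umod, Slc12a1 and Slc12a3, which the choice of the cells had capped, the summed level per mouse in the members was 0 to 13.4 CPM for 4 endothelial genes, 0 to 12.4 CPM for 3 macrophage genes and 0 to 80.6 CPM for 2 thick limb genes. The stromal list, not used in the choice, was at 0 to 33.5 CPM, with Col1a1 and Col3a1 at 0, and the podocyte list at 0 to 62.9 CPM. Genes of neighbouring tubule segments were far higher. The 4 genes left of the distal convoluted and connecting tubule summed to 494 to 2061 CPM, which overlapped the 1225 to 3218 CPM of principal cells, the principal cell list was at 980 to 3224 CPM in the members, and the proximal tubule list at 33456 to 76733 CPM.

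The response to treatment was also compared between type A and principal cells, in 7459 genes. Between AKI-CKD and control the response differed for 2 genes (0.0268%), both lower in type A cells, and between AKI-CKD + EGT and AKI-CKD for 1 (0.0134%), higher in type A cells. The genes were Calb1 and S100g, which encode the calbindins that buffer calcium in the distal tubule. On the scale between cell sets, Calb1 in type A cells was at 180, 212 and 302 CPM in control mice, 195, 169 and 109 CPM in AKI-CKD and 420, 172 and 363 CPM in AKI-CKD + EGT mice. In principal cells it was at 272, 640 and 654 CPM, then 1278, 1299 and 769 CPM, then 1160, 492 and 414 CPM. The AKI-CKD mice were thus above every control mouse in principal cells but not in type A cells. The response in type A minus that in principal cells was -1.70 (SE 0.31, edgeR adjusted p = 0.00801) and then 1.68 (SE 0.31, adjusted p = 0.0163).

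S100g was at 5574, 6889 and 4977 CPM in control mice, 7642, 4785 and 4161 CPM in AKI-CKD and 7939, 2454 and 8334 CPM in AKI-CKD + EGT type A cells, with overlap throughout. In principal cells it was at 7056, 17106 and 11609 CPM, then 33886, 29472 and 22855 CPM, then 26505, 9052 and 9881 CPM. The difference of the responses was -1.45 (SE 0.26, edgeR adjusted p = 0.00801) between AKI-CKD and control and 1.10 (adjusted p = 0.187) for the second comparison. Both calls of the first comparison were lost without control mouse 1 (-1.47 for Calb1, adjusted p = 0.11, and -1.14 for S100g, adjusted p = 0.113), and that of Calb1 in the second without AKI-CKD mouse 1 (1.76, adjusted p = 0.0814) or AKI-CKD + EGT mouse 3 (1.34, adjusted p = 0.21). DESeq2 called none of them, but that fit left out the mouse as a block and so ignored the pairing. The principal cell set may hold connecting tubule cells, and Klk1, a connecting tubule gene, had a log2 fold change of 1.41 (SE 0.39) in it between AKI-CKD and control, while the sodium-calcium exchanger gene Slc8a1 had 0.06 (SE 0.28) and the calcium channel gene Trpv5 -0.13 (SE 0.36). The part of a shifting mix of cells was not tested.

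**Figure D5:**
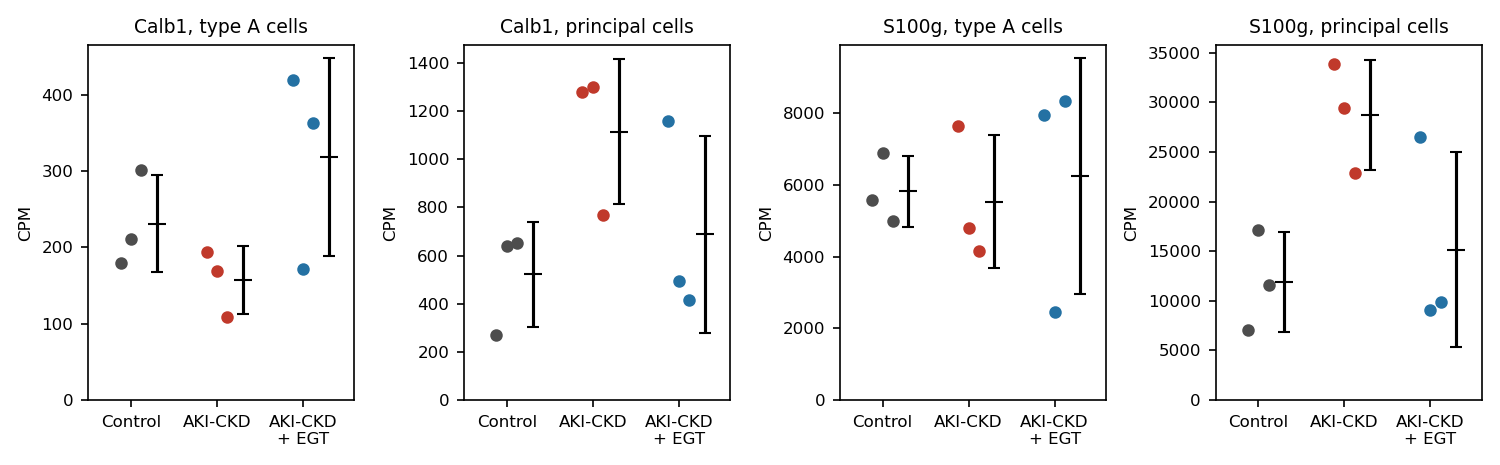
Calb1 and S100g by mouse in type A cells and in principal cells, in CPM of all UMIs of the cell set, with 1 point per mouse and bars for the mean ± SD of 3 mice. In principal cells the AKI-CKD mice are above all control mice (Calb1 769 to 1299 CPM, S100g 22855 to 33886 CPM), while in type A cells the groups overlap.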

How the data were processed

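Each library held single cells of kidney tissue of 1 mouse. The authors deposited raw UMI counts per gene and cell, made per the file headers with PISA v1.0 and not normalized, and the submitters' processing notes name GRCm39. No replicates were pooled.

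The cells were chosen by the marker counts given above, and gene lists and members were chosen with earlier results of these data known. Principal cells had at least 2 UMIs of Aqp2, at least 1 of Aqp3, Scnn1g or Hsd11b2 and none of the intercalated genes, Slc4a1, Aqp6 or Slc26a4. Type B cells had at least 2 of the intercalated genes and of Slc26a4 and none of Slc4a1 or Aqp6. Proximal tubule cells had at least 2 over Lrp2, Slc34a1, Slc5a12, Slc13a3 and Slc22a6 and were not among the type A, type B or principal cells. The cap of 1 UMI over the excluded markers held for each of these sets. Counts were summed per mouse, filtered with filterByExpr and scaled by TMM, and tested with edgeR 4.0.16 in R 4.3.3 (quasi-likelihood, Benjamini-Hochberg), fitting the 9 mice together; between cell sets, mouse was the blocking factor. The SE is the log2 fold change divided by the square root of F. The scripts were tested on simulated data.

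Genes were named if they belong to the lists, if among up to 10 each way past the threshold, filled to 5 by smallest p for groups (average log2 CPM of at least 5, mice not overlapping), or if among the 10 with the largest changes each way between cell sets in the same direction in 9 mice; the remaining levels (Chka, S100g, Klk1, Trpv5) were chosen after their values were seen. Alternatives were DESeq2 1.42.0, no filter on low counts, a fit of 6 mice in place of 9, replicate numbers as a block, other library sizes, no mitochondrial limit, a threshold of 3 UMIs, thinning to 1000 UMIs, members without other tubule markers, and each mouse left out. Between cell sets, the marker alternative left out only cells holding proximal tubule markers. Promoter windows matched 92 of 124 named genes. A few genes were taken out of the lists and are not reported here.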

Additional observations from a re-analysis of the deposited data

Results flagged for a closer look

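The response to treatment differed between type A and principal cells for 2 genes. For AKI-CKD against control, the log2 response of type A minus that of principal cells was -1.45 for S100g and -1.70 for Calb1. For AKI-CKD + EGT against AKI-CKD it was 1.68 for Calb1. These 3 values were past an edgeR adjusted p of 0.05 in a test of the difference itself. DESeq2 called none of them, in a fit that left out the mouse as a block. The calls of S100g and Calb1 in the first comparison were lost without control mouse 1 (-1.14 and -1.47), and that of Calb1 in the second without AKI-CKD mouse 1 (1.76) or AKI-CKD + EGT mouse 3 (1.34). The principal cell set may include connecting tubule cells, and the part of their share was not tested.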

How the results depend on the processing

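The precision is limited by 20 to 61 members and 74396 to 333832 UMIs per mouse. With DESeq2, 7 genes were called for AKI-CKD + EGT against AKI-CKD (6 when genes of the choice are set aside), 916 against principal cells, 130 against type B cells, and 0 and 0 for the difference of responses. For the difference of responses the DESeq2 fit, unlike that of edgeR, did not have the mouse as a block. Without the filter on low counts 29 and 40 genes were called for the pair of group comparisons (28 and 34 without genes of the choice and mitochondrially encoded genes), 1212 and 252 for the cell sets and 18 and 12 for the difference of responses. Fitted on 6 mice alone, 2 genes were called for AKI-CKD against control (Arl15 and Esrrg) and 0 for the second group comparison, where Arl15 had an edgeR adjusted p of 0.131. Without members holding other tubule markers, 0 genes were called for AKI-CKD + EGT against AKI-CKD. Between cell sets only cells holding proximal tubule markers were left out, and members with Aqp2 and Aqp3 UMIs stayed in. Then 74 of 387 genes tested were called against principal cells and 7 of 187 against type B cells. Fewer genes and cells were left in these runs. Leaving out 1 mouse gave 0 genes throughout for AKI-CKD against control, 0 to 21 genes for the second group comparison, 488 to 521 and 62 to 82 for the cell sets, and 3 to 13 and 0 to 8 for the difference of responses. The share of members differed by 0.0388 to 0.121 and by -0.100 to -0.0176 percentage points in the same leave-outs. With the replicate number as a block, 0 genes were called for AKI-CKD + EGT against AKI-CKD (smallest edgeR adjusted p = 0.0714) and 0 for AKI-CKD against control. Same-numbered mice showed no common deviation (correlations of -0.121 to 0.0398, with 1 mouse correlating best with its own number). With so few mice and cells, this check cannot tell whether a number stands for a shared run. Without the mouse as a block 513 and 63 genes were called between cell sets. Of 1700 values of named genes under these settings, 1637 kept their direction and side of the threshold. A further 49 passed it newly and 14 no longer passed it. None changed direction, but no conclusion is drawn from this. Most values came from leaving out 1 mouse, and many genes were named for groups without overlap or for the same direction in every mouse. Such genes could hardly reverse. A gene not tested under a setting gave no value there. Without members holding other tubule markers, 5 of 25 named genes had a value for AKI-CKD against control and 5 of 24 for AKI-CKD + EGT against AKI-CKD.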
